A study of Mus musculus with 20 samples.

Results

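The superoxide dismutases and catalase are 5 genes taken by symbol from the deposited table: Sod1, Sod2, Sod3, Ccs and Cat. All 5 were found, each on 1 row of its own among 46744 rows, and all 5 passed the filter on low values (an average of 1 FPKM or more across groups), as did 12140 named genes in all. FPKM counts fragments per kilobase of a gene model, relative to all mapped fragments, so levels of different genes can be set side by side. The values come from RNA sequencing of whole skin ("total skin") of mice of the inbred strain C57BL/6. Of 20 samples, 14 were control skin of genotype Sod2+/+, namely 5 of age 50 days, 2 of age 100 days, 3 of age 300 days and 4 of age 700 days. The other 6 were skin of a conditional knockout (cKO), genotype Sod2-/-, of which 3 were of age 100 days and 3 of age 300 days. The labels give neither the driver of the deletion nor the cells that carry it, and name no agent or allele beyond these. The table holds 1 FPKM per gene and group, so no value below has a replicate error and no difference was tested.

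Superoxide is made when an electron leaks onto oxygen, above all in the mitochondrial respiratory chain and at NADPH oxidases. Superoxide dismutases convert it to hydrogen peroxide and oxygen. Sod1 is the copper and zinc enzyme of the cytosol and the space between the mitochondrial membranes, Sod2 the manganese enzyme of the mitochondrial matrix, and Sod3 the secreted copper and zinc enzyme that binds to the extracellular matrix. Ccs is the chaperone that loads copper onto Sod1. Cat encodes catalase, the peroxisomal enzyme that splits hydrogen peroxide into water and oxygen. In skin, which meets oxygen and ultraviolet light from outside, these enzymes stand among the first defences against reactive oxygen.

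In the GRCm38 (mm10) assembly with GENCODE M21 annotation, Sod1 lies on the plus strand of chromosome 16 from 90220754 to 90226329. Scaf4, a coding gene of the opposite strand, overlaps it and stood between 6.93 and 8.70 FPKM. Sod2 lies on the plus strand of chromosome 17 from 13006846 to 13040063, and Sod3 on the plus strand of chromosome 5 from 52363791 to 52371418. Ccs lies on the minus strand of chromosome 19 from 4825366 to 4839332 and Cat on the minus strand of chromosome 2 from 103453849 to 103485160. No other annotated gene overlaps these 4. The libraries were directional, and the sources used here do not state whether counting used strand.

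The 250 bases before the start of Sod1, Sod2 and Cat are shown because the 5 members were lower together in cKO than in control skin. Those of Sod3 and Ccs are not shown. The sequences are RefSeq's, of build GRCm38.p6, each written 5′ to 3′ on the strand of its gene. They cover chr16:90220512-90220761 on the plus strand for Sod1, chr17:13007589-13007838 on the plus strand for Sod2 and chr2:103485154-103485403 on the minus strand for Cat. RefSeq's start of Sod2 lies inside the longer GENCODE gene given above. Capitals mark matches on either strand to the GC box GGGCGG, the CCAAT box CCAAT, the TATA box TATAAA and the antioxidant response element core TGACNNNGC, in which N is any base.
Sod1: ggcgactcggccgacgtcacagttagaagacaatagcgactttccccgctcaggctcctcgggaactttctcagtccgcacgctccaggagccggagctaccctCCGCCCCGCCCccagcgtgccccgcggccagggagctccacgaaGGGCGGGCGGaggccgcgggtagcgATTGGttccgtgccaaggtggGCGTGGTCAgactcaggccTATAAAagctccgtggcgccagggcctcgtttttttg
Sod2: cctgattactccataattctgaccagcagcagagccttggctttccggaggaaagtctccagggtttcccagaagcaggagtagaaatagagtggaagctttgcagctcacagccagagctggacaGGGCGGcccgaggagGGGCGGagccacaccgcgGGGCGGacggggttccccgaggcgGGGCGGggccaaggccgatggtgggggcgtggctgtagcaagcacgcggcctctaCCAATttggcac
Cat: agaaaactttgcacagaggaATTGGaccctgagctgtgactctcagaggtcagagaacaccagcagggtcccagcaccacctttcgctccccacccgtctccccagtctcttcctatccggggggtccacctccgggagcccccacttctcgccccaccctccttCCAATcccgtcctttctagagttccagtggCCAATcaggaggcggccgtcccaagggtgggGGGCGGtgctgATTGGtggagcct

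The GC box occurred 4 times before Sod1, 4 times before Sod2 and 1 time before Cat, and 32.7% of 32851 promoter windows of this length hold at least 1. Of the bases shown, 66.4% (Sod1), 63.6% (Sod2) and 62.0% (Cat) were G or C. Among all windows 85.2%, 80.0% and 76.7% had a lower share of G and C, and the 32.7% was not matched for it. The pair of GC boxes in each capital run of Sod1 overlap. Cat held 4 CCAAT boxes, Sod1 and Sod2 held 1 each, and 33.8% of windows hold at least 1. Of these genes, Sod1 alone held TATAAA (12.4% of windows) and TGACNNNGC (10.2% of windows). The AP-1 site TGACTCA, looked for because the series title names the AP-1 subunit JunB, occurred in none of the 3 windows and in 4.46% of all. The cyclic AMP response element TGACGTCA occurred in none of them either, and in 1.55% of all. A match is a string of letters, not a measured site.

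Catalase and Sod1 were the most abundant of these transcripts and Sod3 the least. Averaged over the groups, 96.7% of genes had a lower mean than Sod1, 94.6% a lower mean than Cat, 69.7% a lower mean than Sod2, 52.0% a lower mean than Ccs and 24.6% a lower mean than Sod3. Titles of the 50- and 700-day samples carry another prefix than those of the 100- and 300-day samples, and nothing in the labels says what the prefix stands for. Levels are therefore given for all groups, but ratios only within a prefix.

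Several marker lists differed between the groups compared, and their part in any result on these genes was not tested. All 18 adipocyte markers had a row, none listed at 0. Their summed level was 8758 FPKM in control and 2825 in cKO skin at 100 days, 6458 and 3185 FPKM at 300 days, and in the other pair 1449 (50 days) and 592 FPKM (700 days). For 17 of 18 skeletal muscle markers with a row, the sum was 22930 FPKM in control and 14912 in cKO skin at 100 days, 18862 and 22513 FPKM at 300 days, and in the other pair 4472 (50 days) and 117 FPKM (700 days). Ttn alone was listed at 0, in the 300-day control. The 10 simple and secretory epithelium markers summed to 492 FPKM in the 100-day control, 168 in the 300-day control and 42.6 to 105 FPKM in the other 4 groups, with Wfdc2 listed at 0 in the 300-day cKO. Among B cell markers (8 of 8 with a row) the 300-day control stood at 386 FPKM and the other 5 groups at 5.46 to 15.9 FPKM, with Ms4a1 or Cd79b among those listed at 0 in some of these. The 10 macrophage markers summed to between 56.96 and 177 FPKM, and to 395 FPKM in the 300-day control. The 4 Y-linked genes with a row of their own (Ddx3y, Eif2s3y, Kdm5d and Uty) summed to 101 to 112 FPKM in the 700-day controls and both cKO groups and to at most 0.743 FPKM in the 50-, 100- and 300-day controls. The sex of the animals thus cannot be told apart from genotype, nor from age in the 700- against 50-day comparison. Markers of basal keratinocytes, which define epidermis, were present throughout, all 7 with a row and none listed at 0.

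Among other lists, the sums for basal keratinocytes, stressed keratinocytes and hair follicle stood higher in cKO skin, where the members stood lower. Endothelium markers (7 of 8 with a row) stood lower, at 91.8 FPKM in control and 66.5 in cKO skin at 100 days. At 300 days they summed to 81.1 and 49.0 FPKM, and all 7 had a ratio below 0 at both ages. Of all genes, 48.3% had a ratio below 0 at 100 days and 51.3% at 300 days. Schwann cell markers summed to 93.2 and 85.4 FPKM at 100 days and to 93.5 and 45.6 FPKM at 300 days. Those of differentiated keratinocytes were mixed, at 2094 and 1951 FPKM at 100 days and 2162 and 3376 FPKM at 300 days. The basal keratinocyte markers summed to 1505 FPKM in control and 2296 in cKO skin at 100 days and to 1677 and 2548 FPKM at 300 days. None of the 7 had a ratio below 0 at either age (medians 0.55 and 0.58), and the sums at 50 and 700 days were 5449 and 5968 FPKM. The 13 hair follicle markers summed to 1747 FPKM in control and 5617 in cKO skin at 100 days, with a median of 1.49. There 12 of 13 were higher by a log2 ratio of 0.5, against 11.9% of all genes. At 300 days their sums were 2536 and 2930 FPKM (median 0.34), and 760.0 and 483 FPKM at 50 and 700 days. Stressed keratinocyte markers, such as the S100a8 alarmin, summed to 359 and 784 FPKM at 300 days. There 8 of 9 measured were higher by a log2 ratio of 1, against 1.83% of all genes. At 100 days they summed to 271 and 438 FPKM. By that size 3 of 9 were higher, against 2.18% of all genes, and 1 lower (Stfa3, -2.87), against 4.29%. Sprr2d, Stfa1 and Stfa3 of that list were listed at 0 in the 300-day control and Stfa1 in the 100-day cKO. At 50 and 700 days that list stood at 490 and 760.2 FPKM. Its S100a8 and S100a9 were also the 2 measured genes, of 8, on the neutrophil list. The 10 fibroblast markers with a row, of 12, summed to 866 and 692 FPKM at 100 days (median -0.40) and to 802 and 1551 FPKM at 300 days, where the median was 0.05 and Col1a1 the highest (1.67). Their sums were 742 and 457 FPKM at 50 and 700 days. T cell markers summed to 94.7 FPKM in the 300-day control and to 6.39 to 24.3 FPKM in the other 5 groups.

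**Figure D1:**
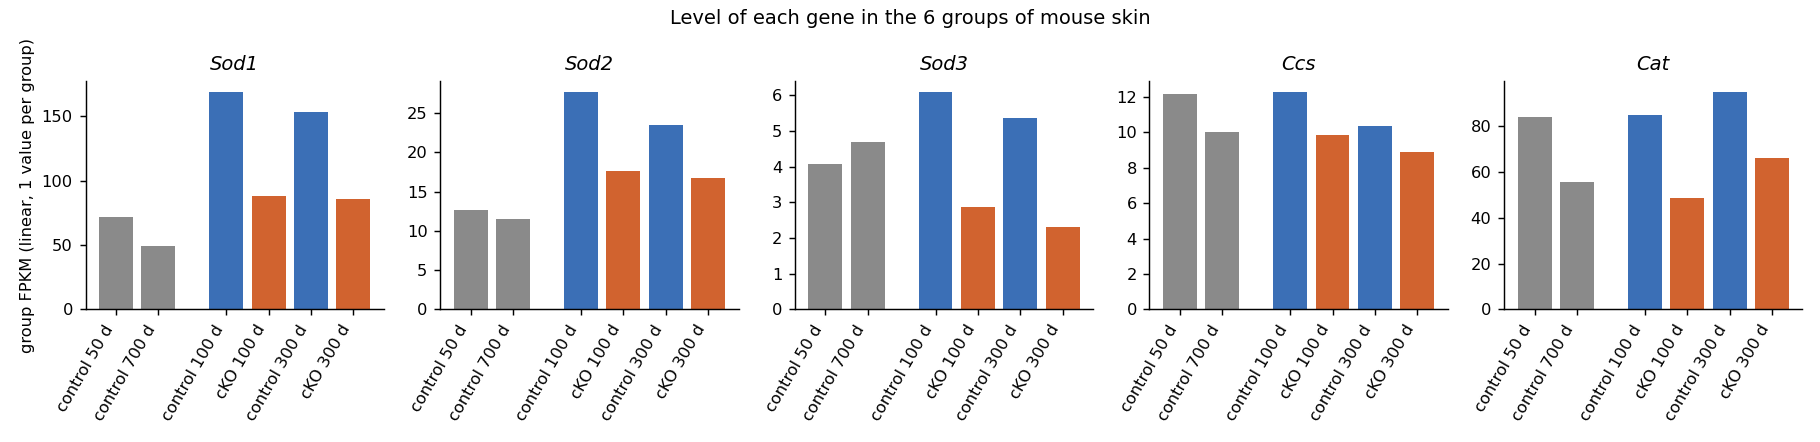
Group FPKM (linear axis from 0, 1 panel per gene with its own scale) of Sod1, Sod2, Sod3, Ccs and Cat in control skin at 50 and 700 days (grey), control skin at 100 and 300 days (blue) and cKO skin at 100 and 300 days (orange), 1 value per group with no error. In every panel the cKO bar is below the control bar of its age, most of all for Sod3 (2.32 against 5.36 FPKM at 300 days) and least for Ccs (8.86 against 10.3 FPKM at 300 days).

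The first question was how these genes stood in cKO against control skin. The targeted gene comes first. Sod2 stood at 27.7 FPKM in control and 17.6 FPKM in cKO skin at 100 days. By 300 days the levels were 23.5 and 16.8 FPKM. Its level was 36.5% lower in the cKO at 100 days and 28.5% lower at 300 days, in the direction of the genotype label and far from absent. On the log2 scale of (FPKM + 1), the Sod2 ratio was -0.63 at 100 and -0.46 at 300 days. A gene-level value sums over all exons, and neither the deleted exons nor the cells that lost them are given in the labels. In whole tissue, fewer cells of a type and less RNA per cell cannot be told apart. Of all genes tested, 10.9% had a lower ratio than Sod2 at 100 days and 16.3% at 300 days.

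Sod1, which was not targeted, was lower by more than Sod2 at both ages. Its level was 169 FPKM in control and 88.2 FPKM in cKO skin at 100 days. At 300 days it was 153 FPKM in control and 85.4 FPKM in cKO skin. These levels were 47.7% and 44.2% lower, with log2 ratios of -0.93 and -0.83. Only 5.19% of genes lay lower than Sod1 at 100 days and 6.95% at 300 days. Among 477 genes with a mean within 1.5-fold of that of Sod1, 5.66% and 3.98% lay lower.

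Sod3, the secreted enzyme, was the least abundant member and showed the largest proportional differences between genotypes. It stood at 6.09 FPKM in control and 2.88 FPKM in cKO skin at 100 days, 52.8% lower in the cKO. At 300 days it stood at 5.36 and 2.32 FPKM, 56.7% lower. Its log2 ratios of (FPKM + 1) were -0.87 and -0.94, which the pseudocount makes smaller than the ratios of the levels themselves. With a pseudocount of 0.1 FPKM they were -1.06 and -1.17. Of all genes, 5.92% lay lower than Sod3 at 100 days and 5.63% at 300 days. Among 2321 genes with a mean within 1.5-fold of that of Sod3, 6.72% and 8.06% lay lower.

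Ccs, the copper chaperone of Sod1, differed least. It was 12.3 FPKM in control and 9.82 FPKM in cKO skin at 100 days, and 10.3 and 8.86 FPKM at 300 days. The log2 ratios were -0.29 and -0.20, with 24.9% and 31.6% of genes lower. With Sod1 lower by more than its chaperone, the level of Sod1 was 13.8 times that of Ccs in control and 8.98 times in cKO skin at 100 days. At 300 days it was 14.8 and 9.64 times.

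Catalase, which acts on the product of the dismutases, was lower in cKO skin as well. Cat stood at 84.8 FPKM in control and 48.5 FPKM in cKO skin at 100 days, 42.8% lower. At 300 days the levels were 95.01 and 66.1 FPKM, 30.4% lower. The log2 ratios were -0.79 and -0.52, with 7.13% and 14.2% of genes lower. Relative to Sod1, Cat was 0.503 of its level in control and 0.550 in cKO skin at 100 days, and 0.621 and 0.774 at 300 days.

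A log2 ratio of 1 in size was set for counting, and 0.5 as a smaller size. At 100 days 0 of 5 members were lower by the larger size, against a background of 4.29% of all genes, and 4 of 5 by the smaller size, against 15.0% of all genes. At 300 days 0 of 5 were lower by the larger size, against 5.07%, and 3 of 5 (Sod1, Sod3 and Cat) by the smaller size, against 14.8%. None was higher by either size, where the background was 2.18% and 11.9% at 100 days and 1.83% and 10.5% at 300 days. All 5 ratios were below 0 at each age, as were 48.3% of all genes at 100 and 51.3% at 300 days. Their median was -0.79 at 100 days and -0.52 at 300 days, while that of all genes was 0.02 and -0.01. These counts describe 5 genes chosen with earlier results known and are no test. They include Sod2, the targeted gene, which is among the 4 of 5 at 100 days. Rescaling the columns to equal totals brought Sod1 past the larger size at 100 days, at -1.06. With totals equal over the tested genes not listed at 0, Sod2 passed the smaller size at 300 days, at -0.51, which made that count 4 of 5.

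**Figure D2:**
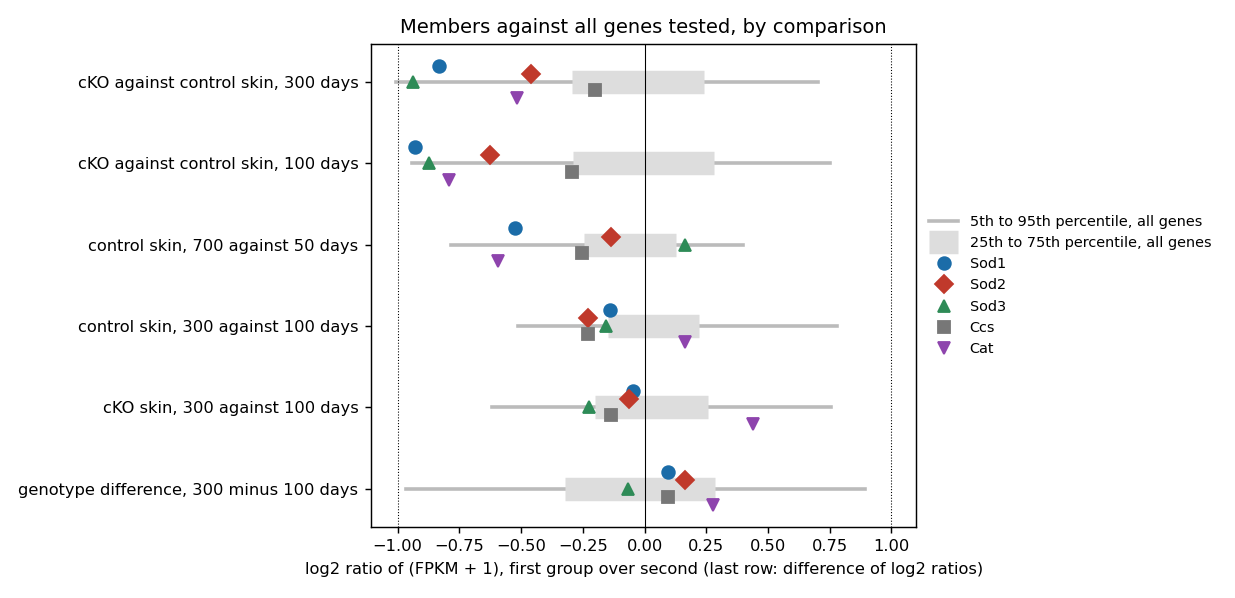
Log2 ratios of (FPKM + 1) of each member (symbols) in 5 comparisons, and in the last row the difference of the genotype ratios at 300 and 100 days, over the 25th to 75th percentile (pale block) and the 5th to 95th percentile (grey line) of 12140 genes; dotted lines mark a size of 1. Sod1, Sod2, Sod3 and Cat lie left of the pale block in both cKO comparisons, and no member lies past a dotted line there.

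Summed over the dismutases, transcripts stood at 202 FPKM in control and 109 FPKM in cKO skin at 100 days. At 300 days the sums were 182 and 105 FPKM. Control skin of 50 days had 88.1 FPKM and that of 700 days 65.4 FPKM. Sod1 made up most of the sum in every group. Its share was 83.3% in control and 81.2% in cKO skin at 100 days, and 84.1% and 81.7% at 300 days. The share of Sod2, the deleted gene, was larger in cKO than in control skin, at 16.2% against 13.7% at 100 days and 16.1% against 12.9% at 300 days. Sod3 held 2.65% against 3.01% and 2.22% against 2.95%. In the mitochondrial against the cytosolic enzyme, the level of Sod1 was 6.09 times that of Sod2 in control and 5.01 times in cKO skin at 100 days, and 6.52 and 5.09 times at 300 days. These shares are of transcript levels per length and say nothing of protein or activity.

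**Figure D3:**
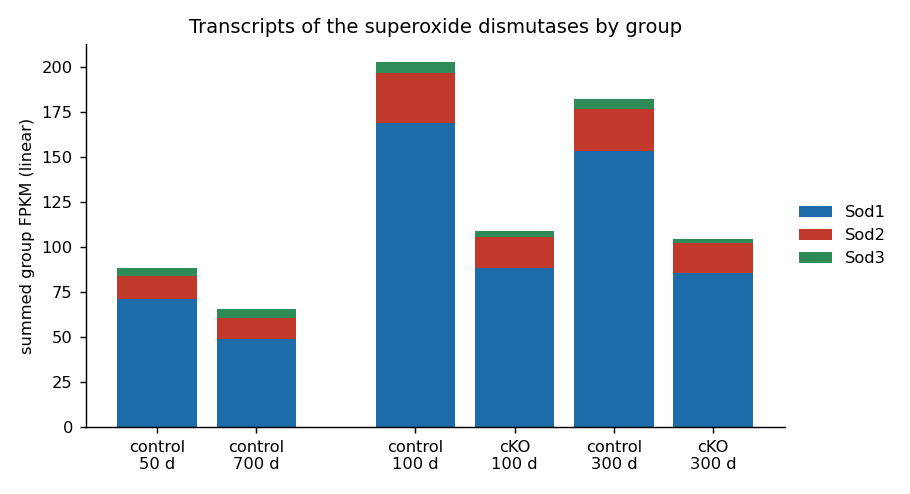
Stacked group FPKM (linear axis from 0) of Sod1 (blue), Sod2 (red) and Sod3 (green) in the 6 groups, 1 value per group with no error. The stack is lower in cKO than in control skin at 100 days (109 against 202 FPKM) and at 300 days (105 against 182 FPKM), and Sod1 is the largest block throughout.

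The next comparison set control skin at 700 days against control skin at 50 days, where 4 of 5 members were lower in old skin, as were 55.2% of all genes (median -0.03). Cat was 55.5 FPKM at 700 and 84.3 FPKM at 50 days, 34.1% lower in old skin (log2 ratio -0.59, with 8.56% of genes lower). Sod1 was 49.3 FPKM at 700 and 71.4 FPKM at 50 days, 31.0% lower (-0.53, with 10.3% of genes lower). These 2 were the members that differed most with age here. Sod2 was 11.5 and 12.7 FPKM (-0.14) and Ccs 10.02 and 12.1 FPKM (-0.25). Sod3 alone was higher in old skin, at 4.69 against 4.08 FPKM (0.16, with 79.6% of genes lower). None of the 5 passed the larger size, which 3.25% of all genes passed downwards and 0.601% upwards. Cat and Sod1 passed the smaller size downwards, as did 11.0% of all genes, and no member passed it upwards, while 2.90% of all genes did. Both calls ended when the columns were rescaled: Sod1 was -0.42 and Cat -0.49 at equal totals, and -0.39 and -0.46 at equal totals of the tested genes not listed at 0. Centring on the median of all genes left Sod1 at -0.49 and Cat at -0.56. Sod2 was -0.04 and -0.01 under the rescalings. The share of Sod1 in the summed dismutases was 75.3% at 700 and 81.0% at 50 days, that of Sod2 17.5% and 14.4%, and that of Sod3 7.17% and 4.63%. Of 18 adipocyte markers 11 were lower at 700 days by the larger size, and all 17 muscle markers were.

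The last comparisons set 300 days against 100 days within each genotype. They share groups with the genotype comparisons above and add no independent values. Differences were small for most members. In control skin the log2 ratios were -0.14 for Sod1, -0.23 for Sod2, -0.16 for Sod3 and -0.23 for Ccs, against a median of 0.03 over all genes. In cKO skin they were -0.05, -0.06, -0.22 and -0.13 in the same order, against a median of 0.02. Cat went the other way. It was 66.1 FPKM at 300 and 48.5 FPKM at 100 days in cKO skin (0.44, with 86.0% of genes lower), and 95.01 and 84.8 FPKM in control skin (0.16). Rescaling to equal totals turned the Cat ratio of control skin to -0.03. No member passed a size of 0.5 in either genotype. In control skin 5.30% of all genes passed it downwards and 9.65% upwards, and in cKO skin 8.01% and 11.4%.

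The difference of the genotype ratios, 300 minus 100 days, was also small for each member. It was largest for Cat, at 0.28, and was 0.17 for Sod2, 0.09 for Sod1, 0.09 for Ccs and -0.07 for Sod3, which turned to 0.05 with columns at equal totals. None reached a size of 0.5, while 14.3% of all genes reached it upwards and 15.7% downwards. For Cat, as for Sod1, Sod2 and Ccs, the genotype difference was thus nearer 0 at 300 than at 100 days. Of all genes, 74.4% had a lower value than Cat.

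Other genes of superoxide and peroxide handling were read from 9 lists, written with earlier results of these data known. Beside the list counts, 4.29% of all genes were lower by the larger size at 100 days and 5.07% at 300 days. Higher by that size were 2.18% and 1.83%. Of the peroxidases, the other enzymes that remove hydrogen peroxide, all 12 were measured. At 100 days 1 of 12 was lower in cKO skin by the larger size and none higher, and at 300 days the count was the same. The gene was Gpx3, the secreted glutathione peroxidase, at 50.1 against 223 FPKM at 100 days (-2.13) and 51.8 against 152 FPKM at 300 days (-1.54). Gpx3 was also lower at 700 than at 50 days, at 5.96 against 28.8 FPKM (-2.10), as was Gpx7 at 1.15 against 4.35 FPKM. Prdx3, the peroxiredoxin of the mitochondrial matrix where Sod2 acts, was 21.4 against 30.5 FPKM at 100 days (-0.49) and 21.1 against 31.3 FPKM at 300 days (-0.54). The median of the peroxidases was -0.44 at 100 and -0.24 at 300 days.

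Among genes that make superoxide, 12 of 18 were measured. At 300 days 4 were lower in cKO skin and none higher. Among them were Rac2 (0.552 against 10.8 FPKM), Ncf4 (3.43 against 17.1 FPKM) and Cybb (2.47 against 8.93 FPKM), which encode parts of the NADPH oxidase of phagocytes. The same comparison had 8 of 8 B cell, 6 of 6 measured T cell and 5 of 10 macrophage markers lower by the larger size. Rac2, Ncf4 and Cybb each stood highest of all groups in the 300-day control. At 100 days they stood at 0.830 against 0.847, 2.48 against 5.36 and 3.99 against 3.45 FPKM (cKO first). Outside the 300-day control Rac2 was below 1 FPKM in every group, so it passed the filter on low values only through that control. Its count as lower at 300 days is therefore no independent result. At 100 days Noxo1, an organiser of the Nox1 oxidase, was lower at 1.05 against 3.59 FPKM, and Duoxa1, a maturation factor of dual oxidases, higher at 6.38 against 2.45 FPKM. Cyba was not analysed here.

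The lists of genes that supply metals to the dismutases had medians above 0 at both ages. Of 11 measured copper genes 1 was lower at 100 days, the metalloreductase Steap4 at 14.6 against 48.3 FPKM, and none passed the larger size at 300 days (27.7 in control and 14.1 FPKM in cKO skin for Steap4). The median of the copper genes was 0.17 at 100 and 0.08 at 300 days. Atox1, a copper chaperone of the secretory pathway, was 37.6 against 27.7 FPKM at 100 days and 33.8 against 34.2 FPKM at 300 days (cKO first). The copper importer Slc31a1 was 14.6 against 11.1 FPKM and 11.4 against 10.8 FPKM. Of 10 measured genes of manganese and iron supply 1 was higher at 100 days, the mitochondrial iron importer Slc25a37 at 20.4 against 7.15 FPKM, and none passed at 300 days (14.3 against 11.8 FPKM). Slc39a8, a manganese importer, was 37.6 against 20.3 FPKM at 100 days (0.86) and 18.6 against 17.4 FPKM at 300 days (0.09). The median of this list was 0.27 at 100 and 0.23 at 300 days.

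Catalase is made in the cytosol and carried into peroxisomes. None of 14 measured genes of peroxisome import passed the larger size at either age, with medians of -0.20 at 100 and -0.15 at 300 days. The import receptor Pex5 was 14.1 against 13.5 FPKM at 100 days and 10.2 against 15.4 FPKM at 300 days. Of 15 measured genes for peroxisomal enzymes and transporters, 5 were lower at 100 days and none higher. Among them were the fatty acid transporter Abcd2 (8.22 against 31.5 FPKM), the lipid carrier Scp2 (83.8 against 178 FPKM), the thiolase Acaa1b (0.533 against 2.21 FPKM) and the D-aspartate oxidase Ddo (1.22 against 3.67 FPKM). At 300 days none of the 15 was lower by that size and 1 was higher, the urate oxidase Uox at 5.09 against 0.307 FPKM. The list holds Pmp22, a myelin gene that does not belong in it, at 36.4 against 41.0 FPKM and 21.6 against 37.3 FPKM. The medians were -0.45 and -0.35.

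Of 18 regulators linked to these genes, 3 were lower at 100 days and none higher, and at 300 days 1 was higher and 1 lower. Pparg, the master regulator of fat cells, was lower at both ages, at 15.3 against 34.99 FPKM and 10.2 against 23.0 FPKM. Its coactivator Ppargc1b was 1.79 against 5.24 FPKM at 100 days and 2.93 against 6.55 FPKM at 300 days, the latter short of the larger size. Fos, an AP-1 subunit and immediate early gene, was lower at 100 days (6.76 against 21.8 FPKM) and higher at 300 days (18.0 against 6.43 FPKM). Fos is also on a list of 14 genes taken as markers of tissue handling, whose part here was not tested. Of that list 3 were lower and none higher by the larger size at 100 days, and 2 higher and none lower at 300 days. Sirt3, the mitochondrial deacetylase that acts on the Sod2 protein, was 6.17 against 11.6 FPKM at 100 days (-0.81) and 5.67 against 11.9 FPKM at 300 days (-0.96). It was also 5.09 FPKM at 700 and 8.36 FPKM at 50 days (-0.62). Nfe2l2, which encodes the factor Nrf2 that drives antioxidant genes, was 22.8 against 25.3 FPKM and 28.3 against 26.8 FPKM.

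Of 13 measured Nrf2 targets 2 were lower at 100 days, Gsta4 (4.01 against 10.4 FPKM) and the malic enzyme Me1 (58.1 against 124 FPKM), and none passed the larger size at 300 days or upwards at 100 days. Txnrd1, the cytosolic thioredoxin reductase, had the highest ratio of the list at both ages, at 29.0 against 19.6 FPKM (0.54) and 22.7 against 18.1 FPKM (0.31). The median of the list was 0.14 at 100 and -0.06 at 300 days, with 6 and 9 of 13 below 0. None of 15 measured genes of mitochondrial import, the route by which Sod2 reaches the matrix, passed it at either age, with medians of -0.09 and -0.16.

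**Figure D4:**
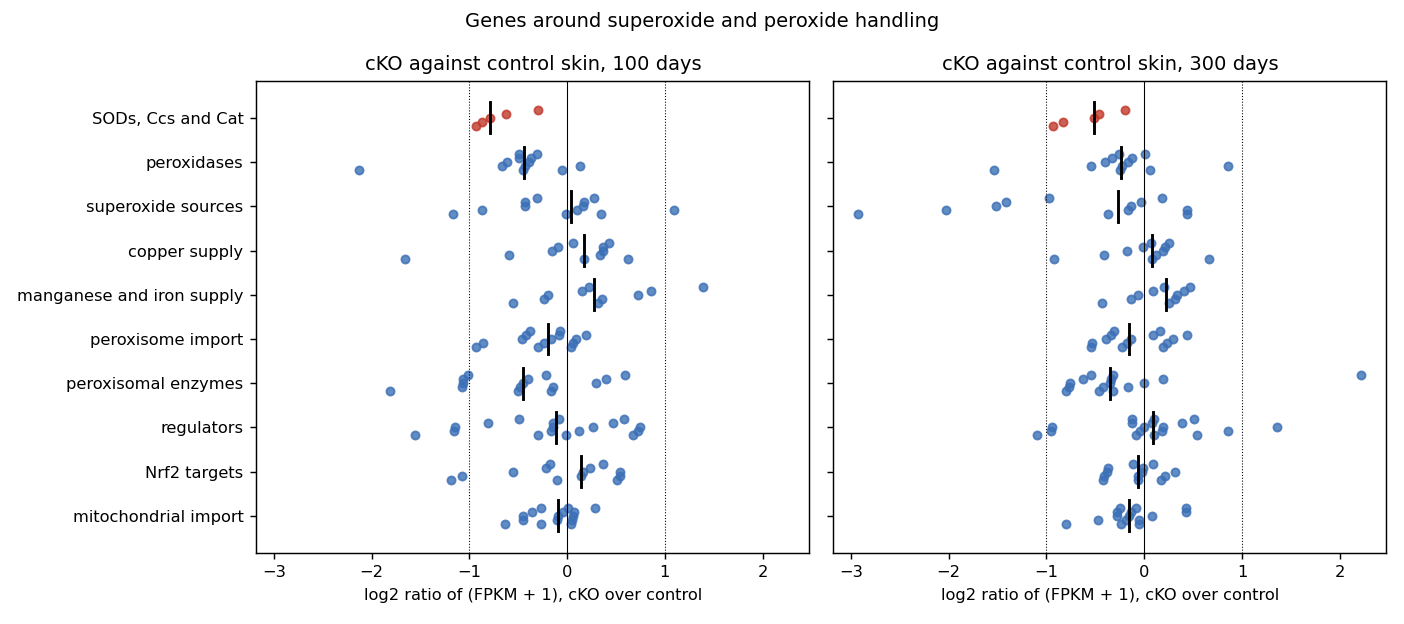
Log2 ratios of (FPKM + 1), cKO over control, at 100 days (left) and 300 days (right) for the 5 members (red) and the measured genes of 9 lists (blue, 1 point per gene), with the median of each as a black bar and dotted lines at a size of 1. The median of the members lies at -0.79 and -0.52, those of the metal supply lists lie above 0 at both ages, and single genes such as Gpx3 at 100 days (-2.13) lie past the members.

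Genes with the most similar pattern were sought among all tested. The measure was the root mean square difference of log2(FPKM + 1) over the 6 groups, after subtracting the mean of each title prefix, which leaves few independent values. For Sod1 they were Acaa1b (0.04), the mitochondrial pyruvate carrier subunit Mpc1 (0.05) and the peptidase gene Cpq (0.05). Acaa1b stood at only 0.247 to 2.21 FPKM, where the pseudocount shrinks ratios. Its levels themselves differed by more than those of Sod1. Mpc1 stood at 107 and 94.0 FPKM in control and 49.6 and 49.5 FPKM in cKO skin at 100 and 300 days. For Sod2 they were the vessel growth factor Angpt1 (0.03), Tgfb1i1 (0.03) and the calmodulin gene Calm3 (0.04). Calm3 stood at 106 and 92.4 FPKM in control and 66.9 and 61.4 FPKM in cKO skin. Angpt1 stood at 0.588 to 3.18 FPKM, where the pseudocount likewise shrinks ratios. Sod3 had L3hypdh (0.08), the lipase inhibitor Angptl4 (0.08) and the clotting protein gene Vwf (0.08). Ccs had Tomm7 (0.02), Tspan7 (0.02) and Zfp386 (0.02). Cat had Ccdc3 (0.03), Macrod1 (0.04) and Idh3b (0.05), a subunit gene of mitochondrial isocitrate dehydrogenase that stood at 228 and 256 FPKM in control and 143 and 180 FPKM in cKO skin. Between members the difference was smallest for Sod2 and Ccs (0.13), and 467 genes lay closer to Sod2 than Ccs did. For Sod1 and Sod2 it was 0.18, with 282 genes closer to Sod1 than Sod2 was. The Pearson correlation of the same values ordered the pairs otherwise. It was 0.96 for Sod1 and Sod2, 0.94 for Sod2 and Sod3 and 0.88 for Sod2 and Ccs.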

How the data were processed

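The labels put 20 samples of whole mouse skin into 6 groups by source name. Ribosomal RNA was removed with either of a pair of kits before directional libraries were made, per the labels' protocols, which do not assign kits to samples. For the deposited FPKM, the submitters' processing notes name HISAT2, Cufflinks, Cuffdiff and the build mm10, without their roles. Tool versions, the annotation and the way samples were merged into a group value are not given in the sources used here. Only these group values were used, so depth is unknown, and no error, interval or test can be given.

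Log2 ratios of (FPKM + 1) were computed here. Background genes were rows with 1 symbol, without predicted, Rik, clone, microRNA, small nucleolar and pseudogene names (19265, of which 98.4% were found by symbol in GENCODE M21). Those with a mean of at least 1 FPKM, 12140 in all, entered the counts, and 78 of them are listed at 0 in some group, which can be a failed estimate. The counting step was run on simulated tables with no value listed at 0, which checks the code and not the counts given here. For each member, the 3 nearest genes by profile were named by rule, and from each list the genes past a size of 1 and others of known role, picked after their values were seen; some listed genes are not reported here by name. The members and lists were chosen with earlier results of these data known. Motifs were searched in RefSeq's GRCm38.p6 promoters. Python 3.11.15, pandas 2.3.3, numpy 2.4.6 and matplotlib 3.10.9 were used.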

Additional observations from a re-analysis of the deposited data

How the results depend on the processing

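All 6 comparisons were recomputed with 7 alternatives planned at the start and 2 added after seeing the data (equal totals over tested genes not listed at 0, and protein-coding genes alone). Filters on genes and the choice of rows cannot alter a member's ratio, and a mean of at least 5 FPKM leaves Sod3 out. Under the 5 alternatives that can alter it (pseudocounts and scalings), 4 of 150 ratios passed a size of 1, downwards: Sod3 with a pseudocount of 0.1 (-1.17 at 300 and -1.06 at 100 days) or 0.5 (-1.06 at 300 days), and Sod1 at 100 days with columns rescaled to equal totals (-1.06). A size of 0.5 was crossed by 6 of the 150, by Sod1 and Cat at 700 against 50 days under rescaling, by Sod1 there after centring, and by Sod2 in the 300-day cKO. Shares of the dismutases cannot change under the alternatives run on them. Of 108 gene counts 18 moved by over 1.5 times. With a pseudocount of 0.1, genes higher were 373 (cKO, 300 days), 466 (cKO, 100 days), 137 (700 against 50 days) and 474 (cKO skin, 300 against 100 days), against 222, 265, 73 and 289. Genes lower were 811 (cKO, 100 days), 770 (700 against 50 days), 211 (control skin, 300 against 100 days) and 364 (cKO skin, 300 against 100 days), against 521, 394, 124 and 174. With a mean of at least 5 FPKM, where fewer genes are tested, genes higher were 172 (cKO, 100 days), 156 (control skin, 300 against 100 days), 177 (cKO skin, 300 against 100 days) and 288 (genotype difference), against 265, 415, 289 and 466. Genes lower were 273 (cKO, 300 days), 333 (cKO, 100 days), 68 (control skin, 300 against 100 days), 85 (cKO skin, 300 against 100 days) and 251 (genotype difference), against 616, 521, 124, 174 and 570. Equal totals gave 187 genes lower in control skin, 300 against 100 days, moved the median of all genes there from 0.03 to -0.15, and moved the share of called genes that were lower from 23.0% to 38.4%. For the cKO at 100 days that share moved from 66.3% to 78.0%, and for the genotype difference from 55.0% to 44.4%. The cause of the other shifts was not tested. No paired analysis was possible because the table holds 1 value per group, and for the same reason no replicate could be left out.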
